A study of Mus musculus with 9 samples.

Results

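The 10 immediate-early genes described here are Fos, Fosb, Jun, Junb, Egr1, Ier2, Ier3, Atf3, Dusp1 and Zfp36. They were taken by name from the 49315 gene IDs of the count table, as a readout of the response of cells to dissociation and sorting. The list was drawn up with earlier results of these data known, although its rule uses no measured value. All 10 were found and all 10 passed the filter on low counts in each comparison. The data were 9 RNA-seq libraries of mouse cells, 3 from each of 3 populations sorted after 2 days of co-culture. SB28 is a mouse glioblastoma line that expresses GFP, and it was grown with primary neonatal astrocytes of the C57BL6 mito::mKate2 strain, in which a CAG promoter drives a red fluorophore, mKate2, that is carried into mitochondria. SB28 cells without mKate2 signal gave the mKate2- group, SB28 cells that had taken up mKate2-labelled mitochondria gave the mKate2+ group, and the donor cells gave the astrocyte group. The cultures were otherwise untreated and, per the labels, shared a DMEM F12 medium with 2% FBS, 5% N2 supplement and 20 ng/ml EGF and FGF, whereas the study's methods give other shares of FBS and N2. SB28 is 1 line, so the SB28 replicates are separate co-cultures and not separate tumors. The labels give the CellTrace Violet dye to the tumor cells and the study's methods give it to the astrocytes, so libraries were grouped by their titles. Total counts ran from 24454561 to 39287841 per library.

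Immediate-early genes are switched on within minutes by growth factors, calcium or stress, through kinase cascades that act on transcription factors already present on their promoters. Fos, Fosb, Jun, Junb and Atf3 encode subunits of dimeric bZIP transcription factors, most of them AP-1. Egr1 is a zinc finger factor and Ier2 a nuclear protein, whereas Ier3, Dusp1 and Zfp36 act on survival signalling, MAP kinases and mRNA stability. In tissue and cultured cells, warm enzymatic dissociation is a known trigger of these genes, which is why they are read as a sign of how cells were handled. Cells were sorted directly into lysis buffer, and how the co-cultures were detached before the sort is not given in the sources used here. No library of cells lysed in place was among the 9, so a level set by dissociation and sorting cannot be told apart from a level already present in culture.

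Promoter sequences from RefSeq (GRCm38.p6, 250 bases before to 50 after each start) were searched for 8 of the 10 genes. Those of Ier2 and Egr1 were not searched. Stretches of 5 are shown, chosen for the matches they hold: TGACG in Fos, Fosb, Junb and Dusp1, and the CArG box in Zfp36. Windows of 300 bases were searched on both strands for 6 motifs. These were TGACG, the core of the CREB/ATF element; its full palindrome TGACGTCA; the AP-1 element TGANTCA; the EGR element GCGNGGGCG; TATAAA; and the CArG box of serum response factor. Matches are in capitals, each sequence runs 5′ to 3′ on the gene's strand, and positions count back from the RefSeq start.
Fos, chr12:85473790-85473889, plus strand, -100 to -1: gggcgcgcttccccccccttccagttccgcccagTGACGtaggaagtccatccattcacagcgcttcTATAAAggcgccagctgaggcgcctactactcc
Fosb, chr7:19310052-19310125, minus strand, -80 to -7: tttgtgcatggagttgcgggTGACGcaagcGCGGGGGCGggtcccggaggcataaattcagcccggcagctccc
Junb, chr8:84978814-84978873, minus strand, -125 to -66: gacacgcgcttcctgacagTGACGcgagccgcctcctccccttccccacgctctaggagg
Dusp1, chr17:26508583-26508682, minus strand, -210 to -111: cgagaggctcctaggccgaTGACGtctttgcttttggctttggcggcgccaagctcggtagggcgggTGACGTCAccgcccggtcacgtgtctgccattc
Zfp36, chr7:28379266-28379295, minus strand, -67 to -38: caggccgccCCATAAAAGGagaaagctcct

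TGACG was present in 5 of the 8 promoters (Fos, Fosb, Junb, Dusp1 and Atf3) and in 20.8% of all 32851 promoters in the table. Fos held it at -129 and at -66, and Dusp1 at -191 and at -143, the second of these inside the full TGACGTCA, which 1.79% of all promoters held. The CArG box was found in Zfp36, at -58, and in 1.63% of all promoters. The EGR element was found in Fosb at -50 and in Zfp36 at -105, against 5.55% of all promoters. TATAAA was found in Fos at -33 and in Junb at 1, the first base of the transcript, against 13.6%. TGANTCA, found in 7.81% of all promoters, was in none of the 8 windows. None of the 6 motifs was in the windows of Jun and Ier3. These are matches of letters and do not show that a factor was bound. The CArG match of Zfp36 lies inside a GENCODE exon that starts farther upstream than the RefSeq transcript.

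The genes were compact. Their exonic length was 2770 bases at the median (1131 to 6243), compared with 4457 bases for the 11854 genes tested in SB28 cells. The median number of merged exon blocks was 2, compared with 9. In GENCODE M21 (GRCm38) the exons of Fos lie within chr12:85473890-85477273, Fosb within chr7:19302696-19310051, Jun within chr4:95049034-95052222 and Junb within chr8:84974484-84978718. Ier2 lies within chr8:84661331-84662852, Ier3 within chr17:35821684-35822923, Atf3 within chr1:191170296-191218039, Dusp1 within chr17:26505590-26562128 and Zfp36 within chr7:28376784-28380253. Some of them share ground with genes on the other strand: Junb with Prdx2, which had 10064 to 21283 counts per library, Dusp1 with Ergic1 (5838 to 9052 counts) and Jun with the antisense gene Junos (132 to 619 counts). These overlaps are of whole gene spans, introns included, and overlap of exons was not tested. The strand setting of the counting is not given in the sources used here, so reads in any shared exons cannot be assigned with certainty.

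The labelled cell types were checked against their markers. Of 15 astrocyte markers, 14 were tested. In each SB28 group 11 were lower than in astrocytes at an adjusted p under 0.05 (edgeR) and an absolute log2 fold change above 1. By adjusted p alone 12 were lower and 1 was higher in each group. Gja1 had a higher mean in mKate2- (265 CPM) and mKate2+ cells (276 CPM) than in astrocytes (198 CPM). Apoe, a lipid carrier, stood at 264, 260 and 270 CPM (the gene's counts per 1000000 counts of the library) in the astrocyte libraries and at 1.96 to 3.22 CPM in the SB28 libraries. Slc1a3, a glutamate transporter, stood at 173, 177 and 236 CPM in astrocytes and at 0.56 to 2.38 CPM in SB28 cells. Gfap, the classic astrocyte filament, was low in the astrocyte libraries, at 8.83, 3.42 and 19.4 CPM. The astrocyte libraries also held oligodendrocyte lineage markers, with Olig1 at 541, 241 and 304 CPM and Olig2 at 268, 159 and 155 CPM, and 3 of the 5 such markers tested were lower in each SB28 group. Astrocyte replicate 3 stood apart, with the water channel Aqp4 at 59.7 CPM against 5.64 and 6.82 in the other replicates. Of 5 endothelial markers, Flt1 was high in that library, at 192 CPM against 5.64 and 12.4, and Cdh5 was at 5.64 CPM against 0.654 and 0.367. Pecam1 (0.455 CPM) and Tek (0.142 CPM) were at their lowest there, and Cldn5 had 0 counts, which allows up to 0.0854 CPM (3 counts). Of 12 microglia and macrophage markers, 10 were under 1 CPM in every library. Tmem119, the most abundant, was at 24.8 to 39.1 CPM in astrocytes and 47.3 to 61.1 CPM in SB28 cells. P2ry12 was at 1.06, 2.54 and 0.484 CPM in astrocytes and lower in both SB28 groups (log2 fold change -6.5 ± 1.11 in mKate2- cells). Of 4 neuron markers tested, 1 was higher and 2 lower by adjusted p (edgeR) in each SB28 group, with Stmn2 at -5.19 ± 0.63 (log2 fold change) in mKate2- cells and Tubb3 at 1.12 ± 0.2 in mKate2+ cells. Map2, which had the highest mean of them over the 9 libraries, had a mean of 36.6 CPM in astrocytes, 21.5 in mKate2- and 16.7 in mKate2+ cells. In mKate2+ cells Tubb3 stood above it, at a mean of 22.7 CPM. Of 4 fibroblast and pericyte markers tested, Col3a1 was higher in both (1.9 ± 0.45 and 1.45 ± 0.43), whereas 1 was lower by adjusted p in mKate2- and 2 in mKate2+ cells, and the median was -0.42 and -0.51. Col1a2, the most abundant of them, had a mean of 990 CPM in astrocytes against 547 and 497 CPM. Of 2 endothelial markers tested 0 passed, also at an unadjusted p under 0.05 (edgeR). In bulk samples, fewer cells of a type and less RNA per cell cannot be told apart.

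Measured per length, as CPM per kilobase of exon, Ier3 was the most abundant of the 10 genes and Atf3 the least. In mKate2- cells the mean level was 178 ± 52.6 for Ier3 (SD, n = 3), 71.1 ± 10.5 for Jun, 46.8 ± 6.04 for Junb and 42.1 ± 7.23 for Ier2. Egr1 followed at 26 ± 14.5, Dusp1 at 16.1 ± 6.07, Fos at 13.2 ± 7.62, Zfp36 at 6 ± 0.444, Fosb at 2.15 ± 0.734 and Atf3 at 1.26 ± 0.458. In this order the libraries of Junb and Ier2, of Ier2 and Egr1, of Egr1 and Dusp1, of Dusp1 and Fos, and of Fosb and Atf3 overlapped, whereas Ier3, Jun and Junb did not overlap one another. In astrocytes Ier3 (193 ± 6.76) and Jun (116 ± 38.8) again led and Atf3 (1.25 ± 0.144) was again last.

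**Figure D1:**
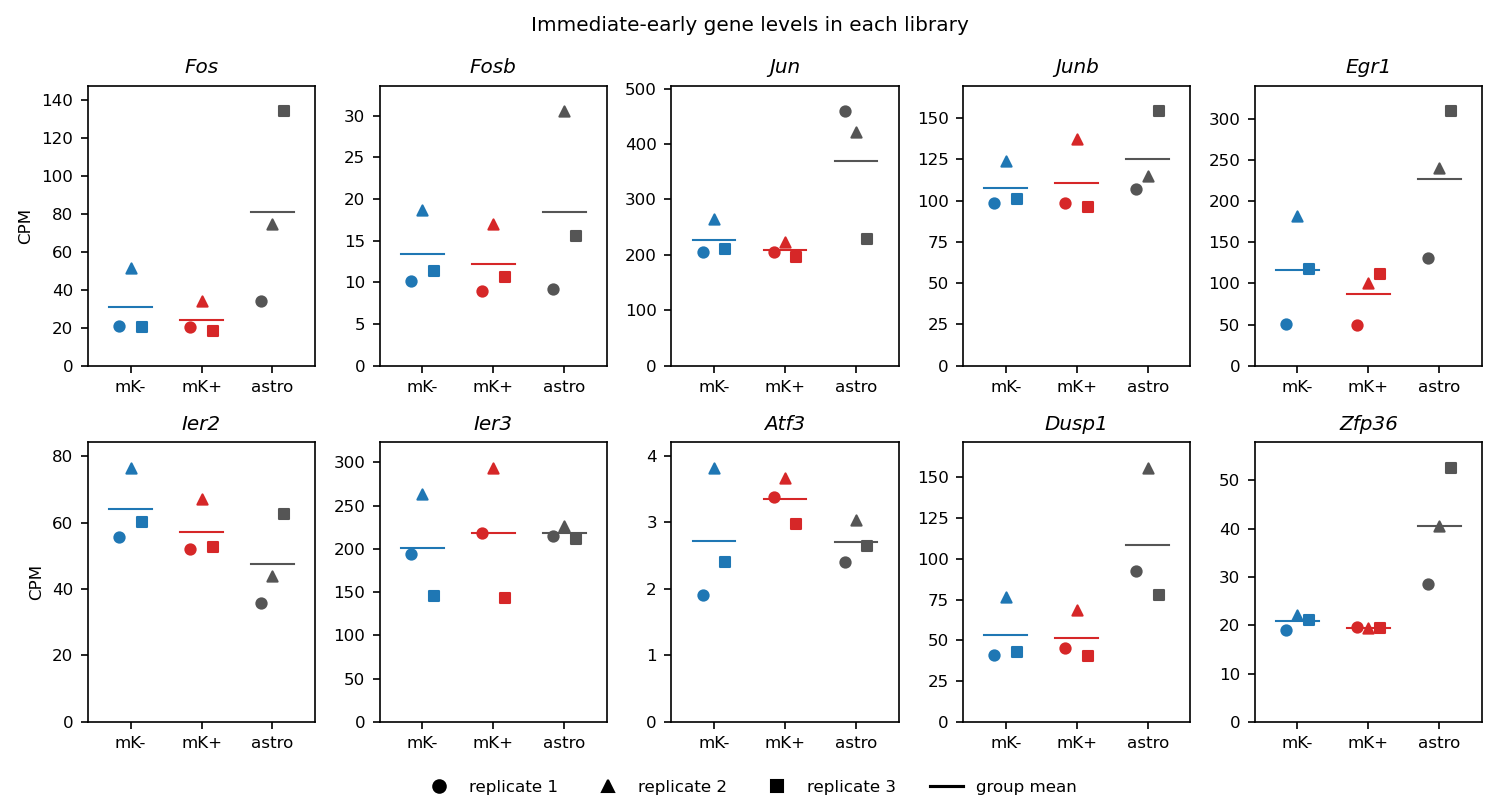
Level of each of the 10 genes in CPM (y axis, from 0) in astrocytes (astro) and in SB28 cells without (mK-) and with (mK+) mKate2. Each point is 1 library, its shape is the replicate number and the line is the group mean of 3 libraries. In mKate2- cells replicate 2 was the highest library for all 10 genes.

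The first comparison asked whether SB28 cells that had received mitochondria differed from those that had not. No difference past a test was found in any of the 10 genes, although 43 of 11854 genes met the criteria used here for this pair of groups. Those criteria were a fold change above 1.5, an unadjusted p under 0.05 and a mean normalized count above 50. By them 0.194% of genes tested were higher in mKate2+ cells and 0.169% were lower, and 0 of the 10 genes were called in either direction. The count of 43 ran from 22 to 380 when 1 library was left out. By adjusted p under 0.05 (edgeR quasi-likelihood test, Benjamini-Hochberg) the share called was 0% of all genes and 0 of the 10. At an unadjusted p under 0.05 the count was also 0 of 10, by edgeR and by DESeq2.

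Fos, the inducible partner of Jun in AP-1, was at 20.9, 51.7 and 20.5 CPM in mKate2- cells and 20.3, 34.2 and 18.1 CPM in mKate2+ cells. Replicate 2 was the high library in both groups and the groups overlapped. The log2 fold change of mKate2+ over mKate2- cells was -0.29 ± 0.41 (SE, 95% interval -1.24 to 0.65, n = 3 per group, edgeR adjusted p = 0.941). Fosb, a second Fos family member, gave 10.2, 18.7 and 11.4 CPM against 8.99, 17 and 10.6 CPM. Its libraries overlapped in the same way, with a log2 fold change of -0.076 ± 0.32 (95% interval -0.81 to 0.66).

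Jun was at 205, 265 and 210 CPM in mKate2- cells and 206, 224 and 197 CPM in mKate2+ cells. The narrow spread gave a narrow interval for the log2 fold change, -0.36 to 0.24 around -0.063. Junb was at 98.6, 124 and 101 CPM against 98.7, 137 and 96 CPM, and its interval ran from -0.32 to 0.51. Atf3, a stress-induced bZIP factor, was close to the filter, with 1.91, 3.82 and 2.41 CPM against 3.38, 3.67 and 2.98 CPM. Its log2 fold change of 0.35 ± 0.28 (95% interval -0.3 to 1, edgeR adjusted p = 0.923) was the largest positive value among the 10, and its libraries overlapped. Without mKate2- replicate 2, Atf3 met the 1.5-fold criteria at a log2 fold change of 0.69, with an adjusted p of 0.948 by edgeR.

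Egr1 was at 51.2, 182 and 117 CPM in mKate2- cells and 49, 101 and 111 CPM in mKate2+ cells. Replicate 1 was low in both groups and the largest gap between groups was in replicate 2. The log2 fold change was -0.36 ± 0.45, and the interval of -1.41 to 0.69 was the widest of the 10. Ier2 was at 55.6, 76.5 and 60.1 CPM against 51.9, 67.1 and 52.7 CPM, with a log2 fold change of -0.1 ± 0.17.

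Ier3, an inhibitor of apoptosis in several cell types, was at 194, 264 and 146 CPM in mKate2- cells and 218, 294 and 143 CPM in mKate2+ cells. Replicate 3 was low and replicate 2 high in both groups, and the log2 fold change was 0.18 ± 0.3. Dusp1, a phosphatase that removes phosphate from MAP kinases, was at 41.1, 76.6 and 42.6 CPM against 45.5, 68.9 and 40.6 CPM. Its log2 fold change was 0.014 ± 0.3 (95% interval -0.68 to 0.71). Zfp36, which binds AU-rich elements and hastens mRNA decay, was the steadiest gene at 19.1, 22.2 and 21.1 CPM against 19.7, 19.4 and 19.4 CPM. Its interval of -0.27 to 0.19 was the narrowest of the 10.

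Over the 10 genes the median log2 fold change was -0.052, and over all genes tested it was 0.0033. None of the 10 had groups without overlap, whereas 2.16% of genes tested had every mKate2+ library above every mKate2- library and 6.67% had every mKate2+ library below. Fos, Fosb, Egr1 and Ier2 (4 of the 10, against 20.1% of genes tested) were lower in mKate2+ cells in each same-numbered pair of libraries, and 0 were higher in each, against 8.01%. With the replicate number as a block, 0 of the 10 were called. The direction of 9 of the 10 values, all but Atf3, changed when 1 of the 6 libraries was left out.

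The values within each SB28 group varied with the replicate. In mKate2- cells replicate 2 had the highest CPM for 10 of 10 genes, against 32.4% of all genes tested. In mKate2+ cells it was highest for 8 of 10, against 29.1% of all genes, the exceptions being Egr1 and Zfp36. Both held by CPM for 8 of 10 genes and for 11.3% of genes tested. After TMM scaling both held for 9 of 10, with Zfp36 as the added gene (19.7, 21.1 and 19.7 CPM in mKate2+ cells). The share of all genes after TMM scaling was not counted. That scaling raises every gene of mKate2+ replicate 2 against replicates 1 and 3 (factors 0.921 against 0.998 and 0.988). The ratio of replicate 2 to the mean of replicates 1 and 3 had a median over the 10 genes of 1.64 for mKate2- and 1.34 for mKate2+ cells, whereas the median over all genes was 0.988 and 0.913. The ratio in mKate2- and mKate2+ cells was 2.5 and 1.78 for Fos, 1.83 and 1.6 for Dusp1, 1.73 and 1.73 for Fosb, and 1.56 and 1.63 for Ier3. For Jun it was 1.28 and 1.11, and for Zfp36 it was 1.1 and 0.994. Some genes of related lists were also highest in replicate 2 of both SB28 groups: 6 of 14 feedback inhibitors of MAP kinase signalling (Dusp2, Dusp14, Spry1, Spry2, Spry4 and Spred2), 8 of 26 other immediate-early effectors and 4 of 27 other immediate-early transcription factors. The numbers lowest there were 0, 3 and 3. Of 23 upstream kinases and factors, 3 were highest and 5 lowest there, and of 19 AP-1 and EGR1 target genes 2 and 1. Of 8 members of the Zfp36 family and decay partners the numbers were 0 and 1, and of 15 receptors and ligands 1 and 2. The share of all genes highest there was 11.3%, as above, and the share lowest there was not counted.

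**Figure D2:**
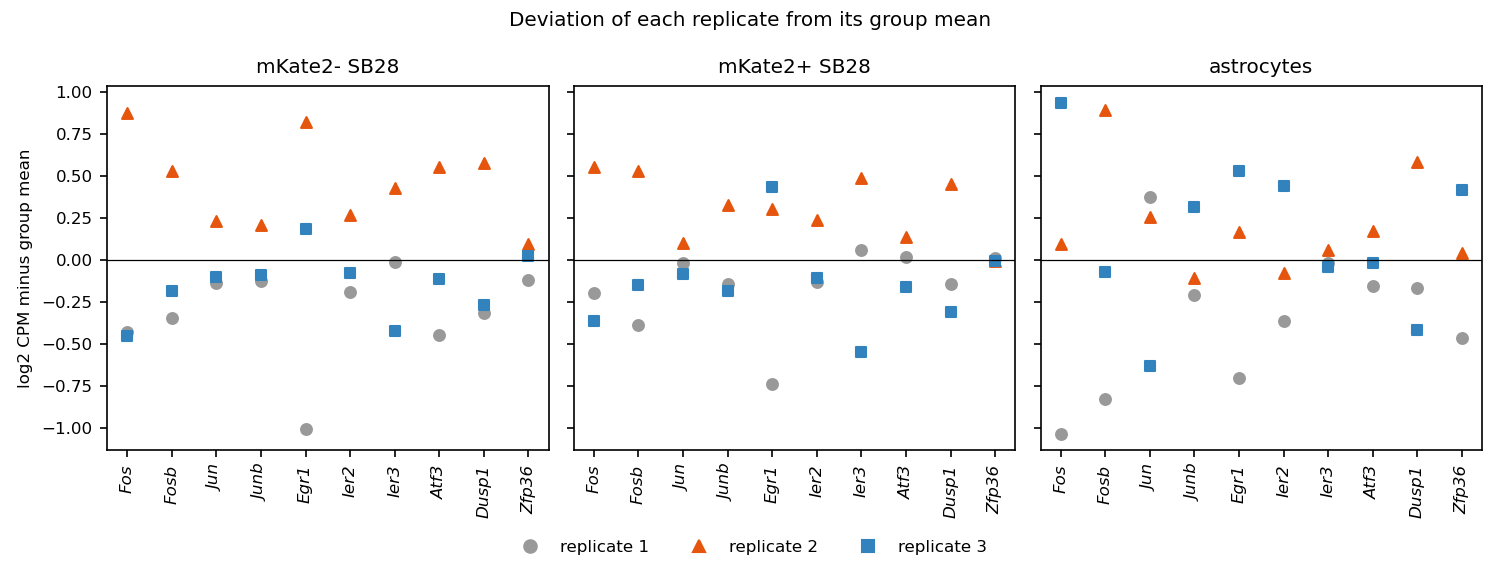
Deviation of each library from its group mean (y axis, log2 CPM) for the 10 genes (x axis), with a panel for each of the 3 groups. Symbols give the replicate number. Replicate 2 lay above the other replicates for 10 genes without mKate2 and for 8 with it, and no replicate led throughout in astrocytes.

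This replicate pattern was seen first and tested afterwards on the same libraries. A replicate term in a fit of the 6 SB28 libraries (edgeR quasi-likelihood F test) called 0% of genes, and 0 of the 10, at an adjusted p under 0.05. The adjusted p of the 10 ran from 0.31 to 0.706, so the pattern failed the correction. At an unadjusted p under 0.05, 8 of the 10 (all but Atf3 and Zfp36) and 9.50% of all genes passed. The fitted log2 ratio of replicate 2 over replicate 1 was 1.51 for Egr1, 1.1 for Fos, 0.96 for Fosb and 0.81 for Dusp1, and that of replicate 3 over replicate 1 was 1.18 for Egr1 but -0.1 for Fos and -0.52 for Ier3. Egr1 was low in replicate 1 and Ier3 in replicate 3, whereas Fos, Fosb, Jun, Junb, Ier2 and Dusp1 were high in replicate 2 and near one another in replicates 1 and 3.

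Other measures moved with replicate 2 unevenly. In mKate2+ replicate 2 the 13 mitochondrially encoded mRNAs took 0.552% of counts, against 1.37% and 1.51% in replicates 1 and 3, and the count-weighted mean exonic length was 5070 bases against 5595 and 5523. In mKate2- replicate 2 the share was 0.839% against 0.998% and 1.23%, and the length of 5629 bases lay between those of replicates 1 and 3 (5518 and 5637). The astrocyte markers summed to 574 CPM in mKate2- replicate 2, against 525 and 526 in replicates 1 and 3, and to 558 CPM in mKate2+ replicate 2, against 555 and 524. Gja1 was the most abundant of these markers in SB28 cells. Of the 15 markers, 3 (Aldh1l1, Sox9 and Ndrg2) were highest in replicate 2 of both SB28 groups and 2 (Slc1a3 and Aqp4) were lowest there. Sox9 was at 75.3, 111 and 90.4 CPM in mKate2- cells and 79.3, 99.4 and 79.6 CPM in mKate2+ cells, and Slc1a3 at 0.947 and 0.56 CPM in replicate 2 of these groups. The part of RNA quality and of other cells in the replicate pattern was not tested.

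The spread of the 10 genes within groups was wide. The SD of log2 CPM between replicates had a median of 0.45 in mKate2- cells, 0.40 in mKate2+ cells and 0.46 in astrocytes. Over 13450 genes the medians were 0.13, 0.19 and 0.25, and over the 9446 genes with a mean of at least 10 CPM they were 0.10, 0.15 and 0.21. Egr1 varied most in SB28 cells (SD 0.93 in mKate2- cells and 0.68 in mKate2+ cells), more than 98.2% and 93.2% of genes. Fos varied most in astrocytes (SD 0.96, more than 94.9% of genes). Zfp36 in mKate2+ cells (SD 0.058) and Ier3 in astrocytes (SD 0.053) varied less than most genes.

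The second question was how tumor cells compared with the astrocytes sorted from the co-cultures. Where the 10 genes differed past the test, they were lower in SB28 cells: Dusp1, Zfp36 and Jun in mKate2- cells, and these 3 with Fos and Egr1 in mKate2+ cells. None was called higher. Fosb, Junb, Ier2, Ier3 and Atf3 passed the test in neither comparison, although Ier2 passed an adjusted p of 0.05 as higher without astrocyte replicate 3 (0.69, edgeR adjusted p = 0.0075, and 0.58, adjusted p = 0.0367). Removing a gene length trend raised the median log2 fold change of all genes from -0.038 to 0.45 in mKate2- and from -0.018 to 0.47 in mKate2+ cells, and the values of the 10 genes with it. Of the lower calls, Fos (edgeR adjusted p = 0.0481) and Zfp36 (0.041) in mKate2+ cells then still passed. Relative to the median of all genes the values in mKate2- cells were -0.97 before and -1 after for Dusp1, -0.9 and -0.94 for Zfp36, and -0.66 and -0.67 for Jun. Both comparisons share the 3 astrocyte libraries, so they are not independent.

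In mKate2- cells against astrocytes, 1 of the 10 genes (Dusp1) was lower and 0 were higher at an adjusted p under 0.05 and an absolute log2 fold change above 1. Of the 13356 genes tested, 22.4% were lower and 11.5% higher by this rule. By adjusted p alone, 3 of the 10 were lower and 0 higher, against 33.8% and 29.3% of genes, so the share of lower calls among the 10 was near or under the background. In mKate2+ cells against astrocytes, 2 of the 10 (Fos and Egr1) were lower by both criteria, against 22.8% of 13342 genes, and 0 were higher, against 12.2%. By adjusted p alone, 5 of the 10 were lower, against 32.1%, and 0 higher, against 28.0%. The median log2 fold change of the 10 was -0.56 and -0.63 in mKate2- and mKate2+ cells, beside -0.038 and -0.018 over all genes tested.

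**Figure D3:**
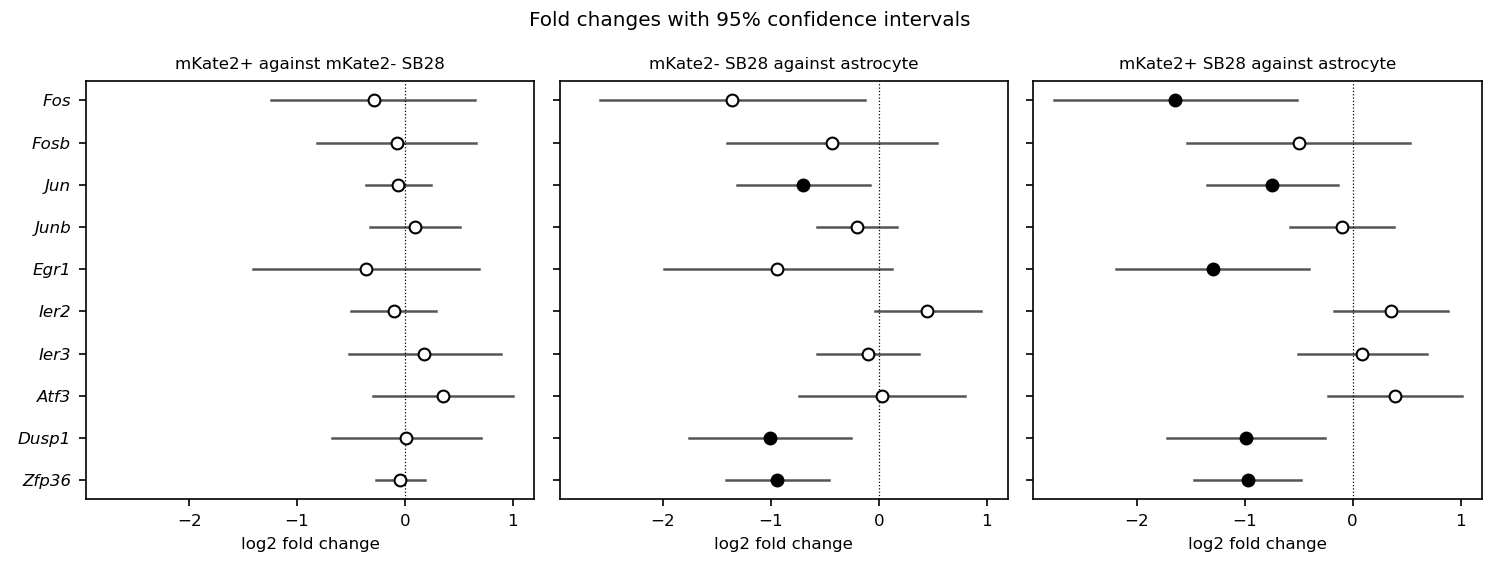
Log2 fold change (x axis) of the 10 genes in 3 comparisons, with bars for the 95% confidence interval of the edgeR fit. Filled points passed an adjusted p of 0.05: 0 between SB28 groups, 3 in mKate2- cells and 5 in mKate2+ cells against astrocytes, all of them lower in SB28 cells.

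Fos was at 34.1, 74.6 and 134 CPM in the astrocyte libraries, a range of 3.94 times. The lowest astrocyte library lay below mKate2- replicate 2 (51.7 CPM) and just below mKate2+ replicate 2 (34.2 CPM). The log2 fold change was -1.36 ± 0.53 for mKate2- cells (edgeR adjusted p = 0.0535), which missed the threshold, and -1.65 ± 0.48 in mKate2+ cells (adjusted p = 0.0199). The mKate2+ call was lost without mKate2+ replicate 1 (adjusted p = 0.0637) or 3 (adjusted p = 0.0677), and the mKate2- value passed without mKate2- replicate 2 (adjusted p = 0.0206) or astrocyte replicate 1 (adjusted p = 0.0152). The mKate2- value also passed with the replicate number as a block (-1.28, edgeR adjusted p = 0.0227), with upper-quartile normalization (adjusted p = 0.0461), with no filter on low counts (0.0112) and in the fit to all 9 libraries (0.0392). The difference between the SB28 groups was itself -0.29, as given above, and did not pass a test.

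Egr1 was at 131, 240 and 309 CPM in astrocytes, and only the lowest of these fell within the range of mKate2- cells. All 3 astrocyte libraries lay above all 3 mKate2+ libraries. The log2 fold change was -0.94 ± 0.45 in mKate2- cells (edgeR adjusted p = 0.106) and -1.29 ± 0.38 in mKate2+ cells (adjusted p = 0.0212). With the replicate number as a block the mKate2- value passed as well (-1.04, edgeR adjusted p = 0.0037). It also passed without mKate2- replicate 2 (-1.41, adjusted p = 0.0376), whereas without mKate2- replicate 1 it was -0.58 (adjusted p = 0.221). The mKate2+ value no longer met both criteria without mKate2+ replicate 1 (-0.99), astrocyte replicate 2 (adjusted p = 0.0548) or astrocyte replicate 3 (adjusted p = 0.05).

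Dusp1 was at 92.6, 156 and 77.9 CPM in astrocytes, each above every SB28 library, by little in the lowest. It fell by 1.01 on the log2 scale in mKate2- cells (SE 0.32, edgeR adjusted p = 0.0263) and by 0.99 in mKate2+ cells (SE 0.31, adjusted p = 0.0274), so that only the former passed the threshold of 1. Without mKate2- replicate 1, mKate2- replicate 3 or astrocyte replicate 2 the mKate2- call was lost, at adjusted p-values of 0.0959, 0.0922 and 0.0856. In mKate2+ cells the adjusted p rose above 0.05 without mKate2+ replicate 1 (0.0847), mKate2+ replicate 3 (0.0902) or astrocyte replicate 2 (0.0903). The mKate2+ value met both criteria with upper-quartile normalization (-1.09, edgeR adjusted p = 0.0196) and by DESeq2 (-1 when rounded, adjusted p = 0.00451). It also did so without mKate2+ replicate 2 (-1.29), astrocyte replicate 1 (-1.08) or astrocyte replicate 3 (-1.2). With no filter on low counts the mKate2- value was -0.96, short of the threshold of 1.

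Zfp36 was at 28.5, 40.5 and 52.6 CPM in astrocytes, with no overlap with the SB28 libraries. Its log2 fold change was -0.94 ± 0.21 for mKate2- cells (edgeR adjusted p = 0.00505) and -0.97 ± 0.21 for mKate2+ cells (adjusted p = 0.00574), lower in SB28 cells, and these held under an adjusted p of 0.05 without any single library. Jun was at 459, 422 and 228 CPM in astrocytes, and the lowest of these fell among the SB28 libraries. Its log2 fold change was -0.7 ± 0.26 (edgeR adjusted p = 0.0486) for mKate2- and -0.75 ± 0.26 (adjusted p = 0.0378) for mKate2+ cells. Leaving out any library but astrocyte replicate 3 moved the adjusted p of Jun above 0.05, and without that replicate the adjusted p was 5e-04 in mKate2- cells and 0.000787 in mKate2+ cells.

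The other 5 genes passed the test in neither comparison, and their values follow. Ier2 was at 35.8, 43.8 and 62.6 CPM in astrocytes. Its log2 fold change was 0.45 ± 0.21 for mKate2- (95% interval -0.036 to 0.95) and 0.36 ± 0.23 for mKate2+ cells. Ier3 was at 215, 227 and 212 CPM, within the range of both SB28 groups. Junb was at 107, 115 and 154 CPM and its log2 fold changes were -0.2 ± 0.16 and -0.1 ± 0.21. All these ranges overlapped those of SB28 cells. Fosb was at 9.24, 30.5 and 15.6 CPM and Atf3 at 2.41, 3.03 and 2.65 CPM. Their intervals against mKate2- cells ran from -1.41 to 0.54 and from -0.74 to 0.8, which leaves room for differences of more than 1.5-fold either way in Atf3.

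Astrocyte replicates did not share an order across the 10 genes. Fos, Egr1, Junb, Ier2 and Zfp36 were highest in replicate 3, Fosb, Dusp1, Ier3 and Atf3 in replicate 2, and Jun in replicate 1. Replicate 3 was the library with high Aqp4 and Flt1 described above, and its Aldoc, a glycolytic enzyme of astrocytes, was at 362 CPM against 55.6 and 33.8. The part of these differences between libraries in the astrocyte levels was not tested.

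Related genes were read from lists. Between the SB28 groups, 0 genes of the 14 other lists met the criteria in either direction, and 1 of the other immediate-early factors and 1 neuron marker had an unadjusted p under 0.05 (edgeR). Of 27 other immediate-early transcription factors, 25 were tested against astrocytes, and in mKate2- cells 2 were higher and 7 lower with an absolute log2 fold change above 1. Myc (1.62 ± 0.17, edgeR adjusted p = 0.000128) and the Fos family member Fosl1 (1.2 ± 0.2) were higher. Cebpd (-3.45 ± 0.13), Id3 (-2.56 ± 0.2) and Id2 (-1.88 ± 0.23), regulators of differentiation, were lower. In mKate2+ cells 4 were higher, among them Srf (1.03 ± 0.12), the factor that binds CArG boxes, and 7 lower. Id3 had the highest mean of this list over the 9 libraries, at 416 CPM in astrocytes and 70.4 CPM in mKate2- cells, where Klf4 led at 164 CPM.

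Of 26 other immediate-early effectors, 3 were higher and 8 lower in mKate2- cells, and 2 and 8 in mKate2+ cells. Errfi1 (1.77 ± 0.12), an inhibitor of EGF receptor signalling, and Trib1 (1.4 ± 0.11) and Tiparp (1.01 ± 0.19) were higher in mKate2- cells. Gem (-4.69 ± 0.24), Arc (-4.59 ± 0.25) and Gadd45b (-2.92 ± 0.24) were lower. Ccn1, which had the highest mean over the 9 libraries though not in SB28 cells, was among the 3 lower genes with the smallest p in mKate2+ cells, at -1.55 ± 0.13.

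Of 14 feedback inhibitors of MAP kinase signalling, relatives of Dusp1 in function, 2 were higher and 3 lower in each SB28 group. The phosphatases Dusp2 (2.3 ± 0.21) and Dusp5 (1.08 ± 0.21) were higher in mKate2- cells, whereas the Sprouty genes Spry2 (-2.32 ± 0.11), Spry4 (-1.17 ± 0.11) and Spry1 (-2.65 ± 0.58) were lower. Spred1 was the most abundant, at a mean of 584 CPM in astrocytes and 345 CPM in mKate2- cells. Of 8 members of the Zfp36 family and mRNA decay partners, Hnrnpd (1.04 ± 0.13) was higher and Zfp36l1 (-1.85 ± 0.4) lower in mKate2- cells, and the same genes were called in mKate2+ cells. Zfp36l2 was the most abundant.

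Of 23 kinases and factors upstream of immediate-early promoters, Rps6ka2 (1.59 ± 0.18) was higher and Rps6ka1 (-1.73 ± 0.39) lower in mKate2- cells. Both encode RSK kinases, which act downstream of MAP kinases. Of 19 AP-1 and EGR1 target genes, 12 were tested in mKate2- cells, where Plau (1.99 ± 0.25) was higher and 4 were lower, including Mmp3 (-5.81 ± 0.38), Ccnd1 (-1.45 ± 0.13) and Vegfa (-1.05 ± 0.17). Spp1 had the highest mean over the 9 libraries, at 1799 CPM in astrocytes and 2300 CPM in mKate2- cells, whereas in astrocytes Ccnd1 led at 3500 CPM.

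Heat shock genes are also used as signs of dissociation. Of 14, 3 were higher and 2 lower in mKate2- cells, and 4 and 2 in mKate2+ cells. Hspa5 (1.12 ± 0.13), Hspd1 (1.12 ± 0.14) and Hspb1 (1.38 ± 0.23) were higher in mKate2- cells, and the inducible Hspa1a (-5.7 ± 0.58) and Hspa1b (-1.3 ± 0.22) were lower. Hspa1a stood at 11.4, 8.68 and 15.8 CPM in astrocytes, and at 0.0368, 0.223 and 0.402 CPM in mKate2- cells and 0.222, 0.204 and 0.234 CPM in mKate2+ cells. The summed level of the heat shock list was lowest in replicate 2 of both SB28 groups, at 12287, 11897 and 12731 CPM in mKate2- cells and 12513, 10602 and 12816 CPM in mKate2+ cells. Of the 14 genes, by CPM, 6 (Hspa5, Hspa8, Hspd1, Hsp90aa1, Hsph1 and Dnaja1) were lowest in replicate 2 of both groups, whereas Hspa1b and Hspb1 were among those highest there. The share of all genes lowest there was not counted. Over all genes the median ratio of replicate 2 to the mean of replicates 1 and 3 was 0.988 in mKate2- and 0.913 in mKate2+ cells. Hsp90ab1, the most abundant of the list, was highest in replicate 3 of both, at 4633, 4639 and 4695 CPM and at 4614, 4200 and 4709 CPM.

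Of 15 growth factor receptors and ligands of the EGF, FGF and PDGF families, 13 were tested, with 2 higher and 5 lower in each SB28 group. The EGF receptor ligands Areg (1.36 ± 0.23) and Ereg (1.24 ± 0.3) were higher in mKate2- cells, whereas Tgfa (-6.23 ± 0.46), Fgfr2 (-5.7 ± 0.35) and Erbb3 (-3.3 ± 0.53) were lower. Fgfr1 was the most abundant.

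**Figure D4:**
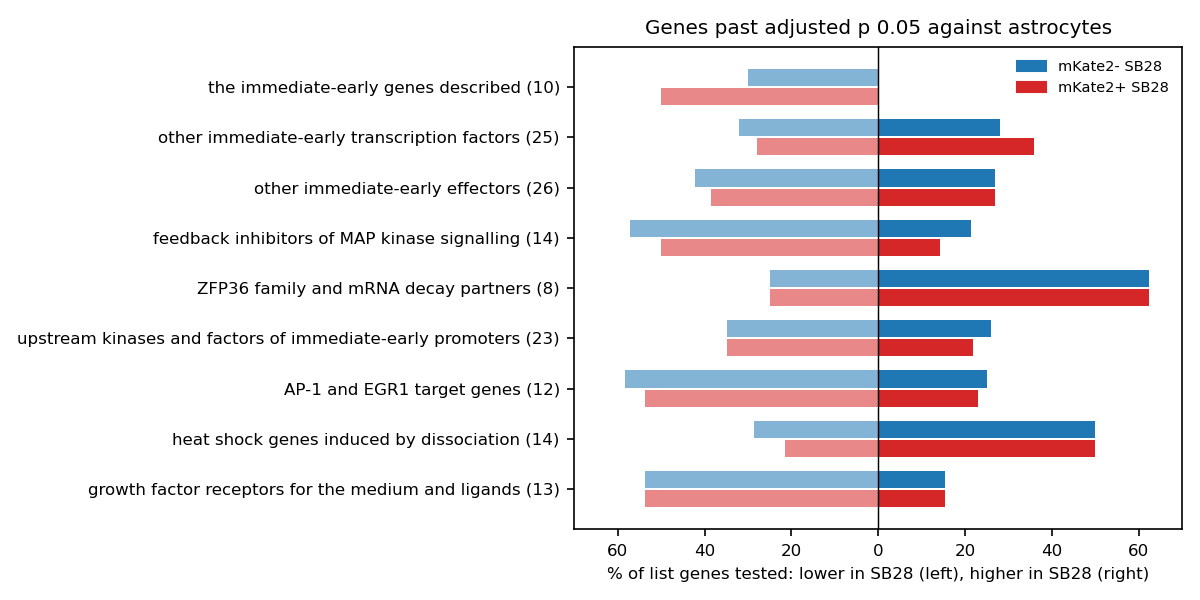
Share of tested genes (x axis, %) of 9 lists that were lower (left) or higher (right) in mKate2- (blue) or mKate2+ (red) SB28 cells than in astrocytes at an adjusted p under 0.05 by edgeR. The number of genes tested in mKate2- cells is in parentheses. The 10 genes described had calls on the lower side only, 3 and 5, whereas the other lists had calls on both sides. Of all genes tested, 33.8% were lower and 29.3% higher in mKate2- cells, and 32.1% and 28.0% in mKate2+ cells.

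The genes whose pattern was most like that of the 10 were found by correlating log2 CPM with the mean z score of the 10. Over all 9 libraries they were Car5b (Pearson's r = 0.978), Fut11 (0.963), Scd1 (0.951), Kdm6b (0.939) and Zfp87 (0.924). Over the 6 SB28 libraries they were Trps1 (0.995), Acad11 (0.991), Kdm6b (0.989), Rnf217 (0.989) and Bhlhe40 (0.988). Kdm6b, a histone H3K27 demethylase, was on both lists, at 70.1, 84 and 71.8 CPM in mKate2- cells and 70, 74 and 70.7 CPM in mKate2+ cells. Bhlhe40, a circadian repressor and itself in the list of other immediate-early factors, was at 102, 168 and 118 CPM in mKate2- cells and 107, 140 and 112 CPM in mKate2+ cells. These genes were picked as the highest of 13450, over libraries that share depth and replicate, and the values describe them only. Each of the 10 is itself a part of the mean z score, which raises its r. Among the 10 themselves r over the SB28 libraries ran from 0.71 for Egr1 to 0.99 for Dusp1. Over the 9 libraries it ran from 0.20 for Ier2 to 0.89 for Fos.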

How the data were processed

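The authors deposited counts of reads per gene in 1 table of 9 columns. Per the submitters' processing notes, reads were trimmed with Trimmomatic 0.36, mapped to GRCm38 with STAR 2.5.2b and counted with featureCounts from Subread 1.5.2. The counts carry no normalization. The strand setting and the annotation release are not given in the sources used here. Gene names, positions and merged exonic lengths came from GENCODE M21, in which 49056 of 49315 IDs were named, and promoters from RefSeq. CPM is the count scaled to a library total of 1000000. Overlaps between genes were taken over whole gene spans, introns included, on either strand.

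Comparisons used R 4.3.3 and edgeR 4.0.16 on the 6 libraries of each pair of groups, with genes above 1 CPM in at least 2 libraries, TMM normalization, the quasi-likelihood F test and Benjamini-Hochberg adjustment over all genes tested. Fold changes carry SEs and 95% intervals from that fit. DESeq2 1.42.0, other normalizations, no filter, a fit to 9 libraries, a replicate block, removal of a gene length trend (loess, span 0.3) and leaving out each library were tried as alternatives. The code was tested on simulated data. Log2 CPM for spreads and correlations used TMM factors and a prior count of 2.

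The named genes were all 10 members. For each other list they were up to 3 called genes with the smallest p per direction and the gene with the highest mean over the 9 libraries, which is not reported here for the list of upstream kinases and factors. For likeness they were the 5 genes with the highest correlation. Of the marker lists not all genes of that rule are named. The markers printed, and examples outside the rule (Bhlhe40's values, Klf4, and genes picked out by their replicate order), were chosen after their values were seen. The members and lists were chosen with earlier results of these data known. The study's methods give 3 separate co-cultures, and p-values measure the spread between these. Depth was 24454561 to 39287841 counts per library, so that the lowest member, Atf3, rests on 251 to 368 counts per group.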

Additional observations from a re-analysis of the deposited data

How the results depend on the processing

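Of the 10 genes, the number called between mKate2+ and mKate2- cells was 0 in every alternative but 1 (leave-one-out range 0 to 1). The count of all genes called, 43, was 83 by DESeq2, 259 with no filter on low counts, 81 in the fit to all 9 libraries and 22 to 380 when a library was left out, lowest without mKate2+ replicate 2 and highest without mKate2+ replicate 1. In mKate2- cells against astrocytes the 1 gene called became 3 by adjusted p alone, 3 with upper-quartile normalization, 2 in the fit to all 9 libraries, 0 with the gene length trend removed and 0 to 3 when a library was left out. In mKate2+ cells the 2 called became 5 by adjusted p alone, 3 by DESeq2, 4 with upper-quartile normalization, 1 with the length trend removed and 0 to 4 when a library was left out. In both comparisons 0 remained called at the low end, without mKate2- replicate 1, mKate2- replicate 3 or astrocyte replicate 2 for mKate2- cells and without mKate2+ replicate 1 for mKate2+ cells. Causes were not tested.

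Removing the length trend moved the median of all genes against astrocytes from -0.038 to 0.45 in mKate2- cells and from -0.018 to 0.47 in mKate2+ cells, and the medians of the 10 to -0.094 and -0.14, still below it. With all genes moved in this way, Fosb (0.034), Junb (0.33) and Ier3 (0.28) reversed in mKate2- cells, and Fosb (0.034) and Junb (0.38) in mKate2+ cells. Between SB28 groups the median of all genes moved only from 0.0033 to 0.012, and Ier3 (-0.024) and Dusp1 (-0.024) reversed there. Relative to the median of all genes Fosb was at -0.39 before and -0.41 after in mKate2- cells. Junb was at -0.16 and -0.11 and Ier3 at -0.063 and -0.17, so none of these 3 changed sign in mKate2- cells. In mKate2+ cells Fosb (-0.48 and -0.44) and Junb (-0.081 and -0.094) kept their sign, whereas Ier3 went from 0.11 to -0.2. Between SB28 groups, Ier3 went from 0.18 to -0.035, Dusp1 from 0.011 to -0.036 and Junb from 0.093 to -0.0026. Upper-quartile normalization reversed Atf3 in mKate2- cells (-0.051) and Ier3 in mKate2+ cells (-0.011). None of these reversed values passed a test. Ier2 passed an adjusted p of 0.05 as higher with the length trend removed (0.89, edgeR adjusted p = 0.0142, in mKate2- and 0.66, adjusted p = 0.034, in mKate2+ cells, which is 0.44 and 0.19 relative to the median of all genes, beside 0.49 and 0.38 before), and with no filter in mKate2- cells (0.51, adjusted p = 0.0382), and Atf3 in mKate2+ cells with the length trend removed (0.85, adjusted p = 0.0194).

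Leaving out 1 library reversed values between SB28 groups, with log2 ranges of -0.7 to 0.3 for Fos, -0.46 to 0.24 for Fosb, -0.17 to 0.069 for Jun, -0.14 to 0.21 for Junb, -0.71 to 0.12 for Egr1, -0.29 to 0.047 for Ier2, -0.16 to 0.43 for Ier3, -0.31 to 0.37 for Dusp1 and -0.093 to 0.01 for Zfp36. Against astrocytes the ranges that crossed 0 were -0.75 to 0.11 for Fosb, -0.35 to 0.091 for Ier3 and -0.3 to 0.23 for Atf3 in mKate2- cells, and -0.86 to 0.047 for Fosb, -0.32 to 0.049 for Junb and -0.23 to 0.33 for Ier3 in mKate2+ cells.

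The labels number replicates 1 to 3 in each group. Deviations from the group means over 13450 genes correlated between same-numbered mKate2+ and mKate2- libraries at -0.0037, 0.136 and 0.17, not above 0.1 in each. The study's methods sort the populations from 3 co-cultures, but no source says that a number marks a co-culture, so the main fits have no block. With the number as a replicate block, 46 genes and 0 of the 10 were called between SB28 groups, 3 of the 10 in mKate2- cells and 2 in mKate2+ cells against astrocytes, and Atf3 reversed in mKate2- cells (-0.021). Not every library correlated best with its own number: mKate2+ replicate 2 did so most with astrocyte replicate 1 (0.252) and mKate2+ replicate 1 with astrocyte replicate 3 (0.138). With 3 libraries a group, the intervals of Fos, Fosb, Egr1, Ier3, Atf3 and Dusp1 between SB28 groups reach beyond a 1.5-fold change.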
